A study of Mus musculus with 32 samples.

Results

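Open chromatin at 34 mouse genes that respond to type I interferon was followed across the dendritic cells (DC) of skin-draining lymph nodes. The 34 genes came from a given list of known interferon-stimulated genes, which uses no measured value in its rule but was drawn up with earlier results of these data known. Their chromatin was read from 32 ATAC-seq peak lists, an assay in which a transposase cuts DNA where it is accessible and a peak marks a place cut more often than its surroundings. Peaks were merged into 90465 regions, each covered in at least 3 libraries, and a library was said to call a region when one of its peaks shared at least 50% of its own or the region's length with it. A region belonged to one of the 34 genes when its midpoint lay in the gene body or, outside all genes, when that gene was the nearest within 50 kb. By this rule 115 of the 81792 regions with a gene were theirs, 61 in gene bodies and 54 between genes, with a median of 2 regions per gene and a highest number of 13 at Samd9l.

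All cells came from mice. Lymph node resident cDC1 and cDC2, and the subsets migDC1, migDC2 and DN migDC that had arrived from the skin, were taken from mice with floxed Ifngr1, the gene for a chain of the interferon-γ receptor. These mice either lacked Cre (Cre-negative) or carried a Cre transgene under the CD11c promoter (Cre-positive), so both genotypes carry the floxed alleles and deletion is limited to cells that have expressed CD11c. Each genotype had 2 libraries of migDC1 and 3 of every other subset. A separate set of migDC2 held 2 wild-type (WT) libraries and 2 libraries from mice with a germline Ifngr1 knockout (KO), which were looked up and not tested. No treatment with interferon is named in the labels, and they give neither ages nor whether replicates are separate animals, so p-values measure only the spread between these libraries.

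Type I interferons bind a receptor found on most cells and act through the kinases JAK1 and TYK2. A transcription factor complex that holds IRF9 then binds the interferon-stimulated response element (ISRE) in the promoters of target genes. The products sense viral RNA, degrade it, block viral entry or translation, or feed back on the pathway, and DC hold many of the genes at a low level of activity before any infection. Interferon-γ uses another receptor and acts through the GAS element, and several genes answer both.

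The lists held 38571 to 75106 peaks in the 28 floxed libraries and 32705 to 42499 in the 4 germline ones, and read depth is unknown. Regions at marker genes went with the sorting labels of the resident lineages and of migration. Of 110 tested regions at cDC1 markers such as Xcr1 and Clec9a, 36 (32.7%) were called less often in cDC2 than in cDC1 and 0 more often. At cDC2 markers such as Sirpa 12 of 39 (30.8%) were called more often in cDC2 and 1 less often. Over all tested regions 13.4% were called less often in cDC2 and 2.16% more often. At markers of migratory DC such as Ccr7, 26 of 47 were called more often in migratory than in resident libraries and 0 less often. Between migDC1 and migDC2 no marker region passed, nor did any region of any gene. The called share of cDC1 marker regions, less that of all regions with a gene, ran from -10.53 to -4.78 percentage points in migDC1 and from -34.93 to -28.19 in migDC2. For cDC2 markers it ran from -19.44 to -15.3 and from -11.08 to -4.7. No marker list was held for DN migDC. Markers of other cells were looked up in the same contrast, in which 25% of all regions were called more often in migratory libraries. At plasmacytoid DC markers 24 of 63 regions were (38.1%), at T cell markers 9 of 25 (36%) and at B cell markers 11 of 37 (29.7%). At NK cell markers it was 5 of 17 (29.4%) and at monocyte or macrophage markers 6 of 23 (26.1%). Neutrophil markers had 4 of 7 (57.1%) and stromal or epithelial markers 3 of 27 (11.1%). The called share of the plasmacytoid DC marker regions, less that of all regions with a gene, ran from -21.24 to -3.76 percentage points in resident and from -9.59 to 18.54 in migratory libraries. For T cell markers it ran from -35.43 to 6.08 and from -8.94 to 14.22, and for B cell markers from -37.39 to -16.47 and from -39.51 to 12.06. Their part in the results on migratory cells was not tested. Peak lists do not show whether Ifngr1 was deleted.

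Promoter sequence was listed by RefSeq (GRCm38.p6, the patch release of mm10) for 26 of the 34 genes. The ISRE core, searched on both strands in the 250 bases before the start as 2 copies of GAAA with any 2 bases between them, was found at 8 of the 26 (30.8%) and at 3.51% of all 17274 genes with a listed start. The 8 were Isg15, Ifit1, Ifit3, Oas1a, Oas3, Rsad2, Bst2 and Ifitm2. The GAS core TTCNNNGAA, which reads the same on both strands, was found at 5 of the 26 (19.2%; Isg20, Ifit2, Oas1a, Bst2 and Eif2ak2) and at 7.73% of all genes. The sequences of 7 genes are shown: Isg15, Ifit1, Ifit3, Oas1a, Oas3 and Ifitm3, whose start regions were missing in some libraries, and Rsad2, whose start was called in all 32 while regions around it differed. They run 5′ to 3′ along the gene up to the base before the start, with the ISRE core in capitals (copies of TTTC where it lies on the other strand).
Isg15, chr4:156200819-156201068, minus strand: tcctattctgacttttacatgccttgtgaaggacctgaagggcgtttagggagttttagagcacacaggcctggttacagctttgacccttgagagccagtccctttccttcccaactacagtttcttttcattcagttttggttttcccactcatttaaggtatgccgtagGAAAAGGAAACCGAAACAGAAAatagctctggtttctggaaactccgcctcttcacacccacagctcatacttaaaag
Ifit1, chr19:34640639-34640888, plus strand: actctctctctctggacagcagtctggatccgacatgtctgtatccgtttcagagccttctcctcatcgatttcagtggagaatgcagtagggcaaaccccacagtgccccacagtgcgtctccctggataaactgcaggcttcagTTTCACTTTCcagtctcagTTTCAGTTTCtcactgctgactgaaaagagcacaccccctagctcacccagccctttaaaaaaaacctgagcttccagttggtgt
Ifit3, chr19:34583279-34583528, plus strand: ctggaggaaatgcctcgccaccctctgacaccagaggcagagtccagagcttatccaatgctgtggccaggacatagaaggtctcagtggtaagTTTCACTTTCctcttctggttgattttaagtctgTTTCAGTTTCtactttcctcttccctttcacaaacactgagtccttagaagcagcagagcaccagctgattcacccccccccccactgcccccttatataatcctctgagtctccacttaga
Rsad2, chr12:26456453-26456702, minus strand: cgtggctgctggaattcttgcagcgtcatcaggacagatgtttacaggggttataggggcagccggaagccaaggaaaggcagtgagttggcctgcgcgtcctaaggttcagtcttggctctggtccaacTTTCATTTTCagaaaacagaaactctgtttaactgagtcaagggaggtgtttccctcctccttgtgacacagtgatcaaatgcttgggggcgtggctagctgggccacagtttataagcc
Oas1a, chr5:120907526-120907775, minus strand: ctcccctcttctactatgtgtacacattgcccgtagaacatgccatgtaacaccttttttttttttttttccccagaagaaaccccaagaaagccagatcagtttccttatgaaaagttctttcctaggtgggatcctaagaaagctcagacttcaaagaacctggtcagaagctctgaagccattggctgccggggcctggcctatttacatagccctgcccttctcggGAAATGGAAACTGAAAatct
Oas3, chr5:120777660-120777909, minus strand: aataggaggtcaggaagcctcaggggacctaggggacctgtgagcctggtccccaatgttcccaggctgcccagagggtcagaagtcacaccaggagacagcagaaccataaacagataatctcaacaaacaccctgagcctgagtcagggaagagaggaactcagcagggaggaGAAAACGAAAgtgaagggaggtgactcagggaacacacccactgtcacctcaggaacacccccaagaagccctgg
Ifitm3, chr7:141010745-141010994, minus strand: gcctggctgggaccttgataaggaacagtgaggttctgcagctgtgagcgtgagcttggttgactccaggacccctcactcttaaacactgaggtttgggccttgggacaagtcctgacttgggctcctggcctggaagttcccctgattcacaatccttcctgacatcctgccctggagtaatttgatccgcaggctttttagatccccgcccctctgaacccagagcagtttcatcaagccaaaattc
In Isg15 3 overlapping copies of the core begin between 78 and 66 bases before the start. In Oas1a 2 overlapping copies begin 20 and 14 bases before it, Ifit1 has copies at 104 and 85 bases, Ifit3 at 156 and 122. Rsad2 has 1 copy at 120 and Oas3 1 at 75. The Ifitm3 window holds no match to these letters. Neither do those of Ddx58, Oasl2 and Samd9l, which are not shown though their start regions were also missing in some libraries.

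Most of the genes had an open start in every DC. Of the 115 regions, 31 (27%) were called in all 32 libraries, against 24.6% of all regions with a gene, and 38 (33%, against 27.2%) in all 28 floxed ones. Split by position, these were 24 of the 41 regions within 1 kb of a gene end or start (58.5%, against 57.8% of all such regions) and 7 of the 74 others (9.46%, against 14.6%). Start regions, or for genes without a listed start a region over a gene end, were found for 31 genes, and 20 of these were called in all 32 libraries. They are the transcription factors Irf7 and Irf9, which drive interferon responses; the sensors and their partners Ifih1 (MDA5), Dhx58 (LGP2), Zbp1, Trim25 and Eif2ak2 (PKR); the exonuclease Isg20; the RNA-binding Ifit2; Oasl1; Rsad2 (viperin) and its neighbour Cmpk2, a nucleotide kinase; the deconjugating enzyme and receptor inhibitor Usp18; the ligase Herc6; the membrane proteins Ifitm2 and Bst2 (tetherin); and Parp9, Parp14, Ifi35 and Xaf1. Ranked within each list by the authors' peak signal, the share of peaks that were weaker had a median over libraries between 62.3% at Eif2ak2 and 93.9% at Irf7, though in single lists it was as low as 20% at Xaf1. The Parp9 region, chr16:35938338-35940367, also covers the start of Dtx3l, which encodes its binding partner. No region over a gene end was assigned to Rtp4, and since no start is listed for it, whether a region covers its start is unknown. None over the start was assigned to Ifi44. The single Ifi44 region, 3.7 kb into the gene, was called in 4 of 6 cDC1 libraries and in none of the other 26.

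The other 11 start regions were missing in at least 1 library, and 10 of the 11 were missing in at least 1 of the 6 cDC1 libraries. In cDC2 5 of the 11 were missing in at least 1 library, in migDC1 6, in migDC2 3 and in DN migDC 4. Of the germline migDC2 libraries, at least 1 also lacked a call at Oas1a, Oas2, Oas3, Ifit3, Ifitm3, Samd9l and Ifi27l2a. The like shares over start regions of all genes were not counted, so these counts are not read as particular to the interferon genes. Some of the 11 are neighbours, Oas1a with Oas2 and Oas3, and Ifit1 with Ifit3, so they are not separate observations. Oas1a, an oligoadenylate synthetase that activates RNase L, had its start region (chr5:120906840-120907815, over the paired ISRE printed above) called in 0 of 6 cDC1, 4 of 6 cDC2 and 16 of 16 migratory libraries. Among cDC2 it was called in 1 of 3 Cre-negative and 3 of 3 Cre-positive libraries. The Oas2 region (chr5:120749658-120750091) was called in 0 of 6 cDC1 and 0 of 4 migDC1 libraries, and in 6 of 6 cDC2, 5 of 6 migDC2 and 4 of 6 DN migDC. The Oas2 region was also called in 0 of 4 germline migDC2 libraries; it covers a gene end, since no start is listed for Oas2. Both regions were thus missing in every cDC1 library, and that of Oas2 in every migDC1 library too. Oas3 was called at its start in 1 of 6 cDC1, 2 of 6 cDC2, 2 of 4 migDC1, 5 of 6 migDC2 and 3 of 6 DN migDC, although a second Oas3 region 2.0 kb inside the gene was called in all 28 floxed libraries.

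Ifit3, which binds RNA together with Ifit1 and Ifit2, had its start region (chr19:34582741-34583846) called in 2 of 6 cDC1, 6 of 6 cDC2, 3 of 4 migDC1, 12 of 12 floxed migDC2 and DN migDC and 2 of 4 germline libraries. Ifit1 itself has no region by the rule, because the region over its start (chr19:34639925-34641257) has its midpoint in the bodies of the overlapping genes Ifit1bl1 and Ifit1bl2. That region was called in 3 of 6 cDC1 libraries and in all of the other 26. Isg15, a ubiquitin-like protein joined to other proteins in infected cells, was called at its start (chr4:156200279-156201474) in 4 of 6 cDC1 and in all of the other 26 libraries. The start of Ddx58, which encodes the RNA sensor RIG-I (chr4:40238724-40240213), had the same counts. The Oasl2 start was called in 5 of 6 cDC1, 4 of 6 cDC2 and all 16 migratory libraries. Ifitm3, which blocks fusion of viruses with endosomes, was called at its start in 0 of 6 cDC1, 1 of 6 cDC2, 3 of 4 migDC1, 6 of 6 migDC2 and 4 of 6 DN migDC. Samd9l departed from this order: its start was called in all 12 resident libraries and missing in 1 Cre-negative migDC1 library and 1 KO library. The Ifi27l2a region at a gene end was rare, in 7 of 32 libraries. Oas1a, the Ifit genes and the Ifitm genes have near-identical neighbours, and how reads that fit several copies were placed is not stated, so their counts are less certain.

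**Figure D1:**
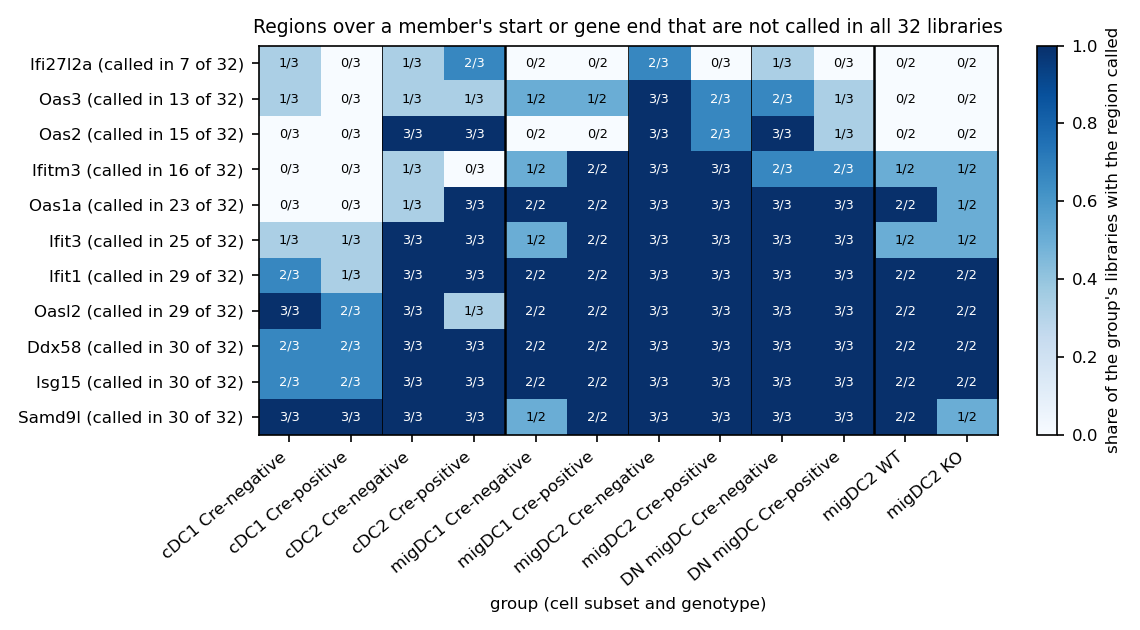
Number of libraries with a call in each group for the 11 regions over a start or gene end that were not called in all 32 libraries; rows are genes, columns the 12 groups of subset and genotype, colour the share of libraries. In the cDC1 columns Oas1a, Oas2 and Ifitm3 were called in 0 of 6 libraries. Pale cells are also found in other columns, as for Oas2 and Oas3 in the germline groups. The Ifit1 row shows the start region assigned to its neighbours.

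Near gene ends and starts, cDC1 was the subset in which the interferon genes fell behind other genes. The share of their 41 regions called was 76.83% ± 5.51 (SD, n = 6) in cDC1 and 86.99% ± 7.5 (n = 6) in cDC2, while the share of all regions of this kind was higher in cDC1, at 82.64% ± 3.93, than in cDC2, at 76.85% ± 5.52. The difference between the interferon genes and all genes was therefore -10.71 to -1.71 points over the 6 cDC1 libraries, 4.15 to 14.55 over the 6 cDC2, 4.42 to 7.22 over the 4 migDC1, -0.7 to 16.37 over the 6 migDC2 and 0.92 to 7.48 over the 6 DN migDC libraries. The value was higher in all 22 other floxed libraries than in any cDC1 library. The mean of cDC1 was lower by 12.87 points, a contrast singled out after the values were seen and given without a test. With every list cut to its strongest peaks, as many as the shortest list holds, the difference was -12.34 points and 21 of the 22 libraries lay above all cDC1. With peaks of a signal of at least 400 alone it was -12.34 points and 20 of 22 lay above, the highest cDC1 library at 0.14 and the lowest other at -2.36. Among libraries with plain numbered titles alone, the only series of titles that holds resident cells, it was -12.46 points with 10 of 10 above. Away from gene ends cDC1 was not the lowest subset, and the same difference averaged -1.67 ± 2.88 points in cDC1, -3.41 ± 2.6 in cDC2, 0.73 ± 1.3 in migDC1, -7.09 ± 2.91 in migDC2 and -6.97 ± 3.58 in DN migDC.

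**Figure D2:**
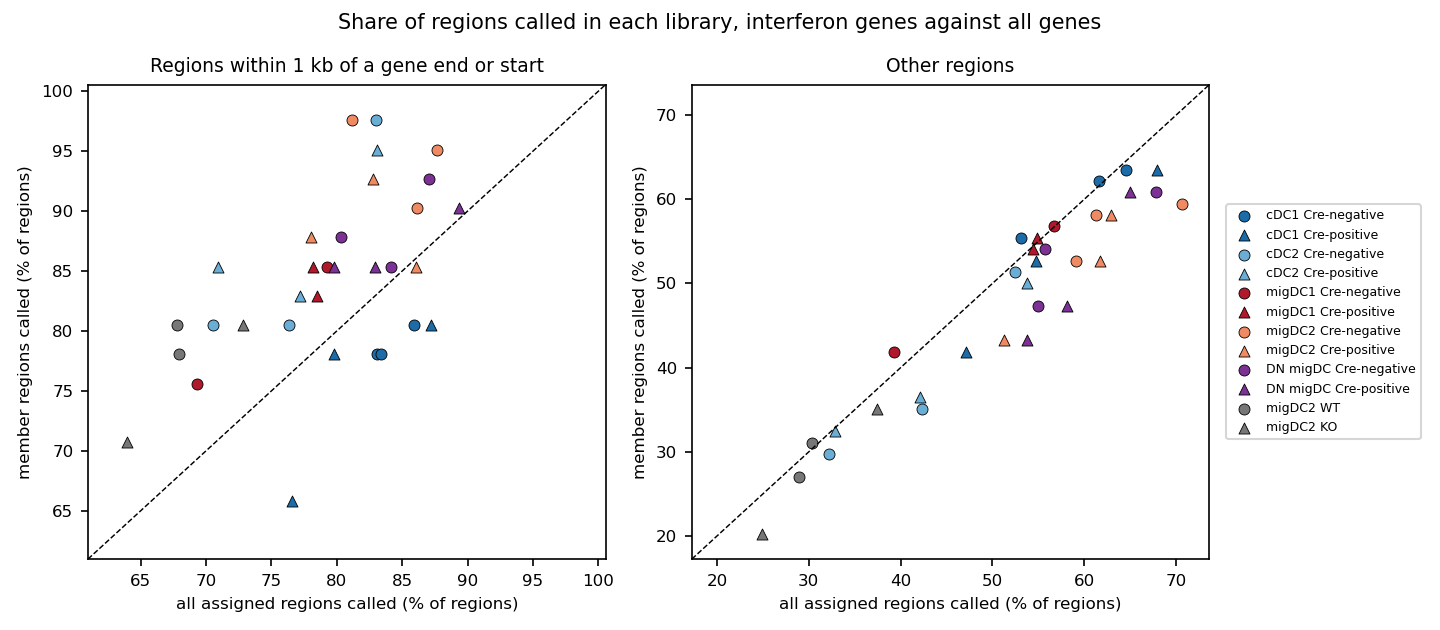
Percent of the 34 genes' regions called (member regions, vertical) against percent of all regions with a gene called (horizontal) in each of the 32 libraries, for regions within 1 kb of a gene end or start (left) and other regions (right); the dashed line marks equal shares, circles are Cre-negative or WT and triangles Cre-positive or KO. On the left the 6 cDC1 libraries lie below the line, between -10.71 and -1.71 points.

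Over all 115 regions, the called share of the interferon genes followed that of all genes. It was 60.0% ± 8.51 (SD, n = 12) in resident and 65.33% ± 5.3 (n = 16) in migratory libraries, and the share of all regions with a gene was 57.2% ± 10.08 and 63.51% ± 6.72. Less that of all genes it was 2.8 ± 4.13 points in resident and 1.82 ± 3.06 in migratory libraries, a difference of -0.98 that is smaller than the spread within each group. By subset the values were -0.09 ± 2.64 points in cDC1, 5.7 ± 3.23 in cDC2, 5.74 ± 1.29 in migDC1, 1.04 ± 2.4 in migDC2 and -0.01 ± 2.06 in DN migDC. The cDC1 libraries spanned -3.54 to 3.42 and the migDC1 libraries 4.93 to 7.67, without overlap. Those of cDC2, 1.12 to 9.61, overlapped cDC1 and migDC2. List length differed too: cDC2 had the shortest floxed lists, with a median of 46846.5 peaks against 64265 in cDC1, and the germline migDC2, shorter still, stood at 6.72 ± 2.31 points. With the same number of peaks in every list cDC2 exceeded cDC1 by 4.85 points, and by 5.79 in the full lists.

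Single regions differed between migratory and resident cells in both directions. A region entered a test when at least 3 of the libraries compared called it and at least 3 did not, and groups were compared by how many libraries called it (exact conditional test, two-sided, genotype as strata, Benjamini-Hochberg over all tested regions, threshold 0.05). Of 71 tested regions of the interferon genes 28 passed (39.4%, against 40.1% of all 61445 tested). Of these 16 were called more often in migratory libraries (22.5%, against 25% of all) and 12 less often (16.9%, against 15.1%). The median difference in called share was 10.42 points for the 71 and for all tested regions alike. By gene, 7 had only regions called more often in migratory libraries (Oas1a, Oasl1, Rsad2, Cmpk2, Ifih1, Rtp4 and Herc6). Another 6 had only regions called less often (Oasl2, Ddx58, Bst2, Ifi35, Eif2ak2 and Trim25), 3 had both (Dtx3l, Ifitm3 and Samd9l) and 18 had none. Resident libraries pool cDC1 and cDC2, so a region called in cDC1 alone can pass as called less often in migratory cells. Of the 12 tested regions within 1 kb of a gene end or start, 2 were called more often (16.7%, against 20.7% of all such regions) and 1 less often (8.33%, against 13.6%). Of the 59 others, 14 were called more often (23.7%, against 25.5%) and 11 less often (18.6%, against 15.3%). Most migratory libraries carry lettered titles and all resident ones plain numbers, and what the titles stand for is not stated, so title series and migration cannot be told apart in those libraries. Within the plain titles, 4 migratory libraries, none of them migDC1, were set against 12 resident ones. There 13 of the 28 regions passed again, 10 of them higher and 3 lower in migratory cells. The like share over all regions was not counted. These libraries are among those that gave the 28, so passing again is no separate support.

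**Figure D3:**
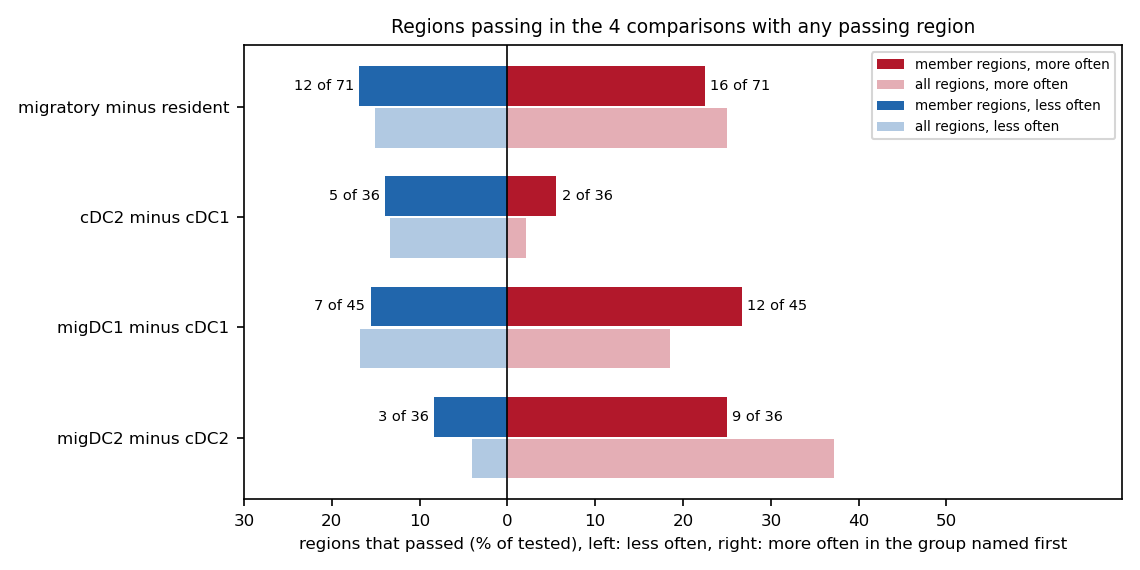
Percent of tested regions that passed at an adjusted p of at most 0.05, more often (right) or less often (left) called in the group named first, for regions of the 34 interferon genes (member regions, dark bars, with counts) and all regions (pale bars), in the 4 comparisons with any passing region. The dark and pale bars are of like length for migratory minus resident, 22.5% against 25% and 16.9% against 15.1%.

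Rsad2 and Cmpk2 held the densest gain. They lie head to head with 12.7 kb between their starts, and Rsad2 encodes viperin, which makes a chain-terminating nucleotide from CTP. Both start regions were called in all 32 libraries, where calls can show no difference, and the regions that differed lay around them. A region 1.6 kb inside Rsad2 (chr12:26454541-26455107) was called in 16 of 16 migratory, 0 of 12 resident and 4 of 4 germline libraries (adjusted p = 2.07e-06, exact conditional test). Another, between the genes 3.5 kb before the Cmpk2 start (chr12:26465506-26465987), was likewise called in 16 of 16 against 0 of 12, and in 3 of 4 germline libraries (adjusted p = 2.07e-06, exact). A further pair, 12.3 kb inside Rsad2 (chr12:26443894-26444407) and 17.0 kb from its start beyond the gene's far end (chr12:26439253-26439717), were each called in 15 of the 16 migratory libraries against 0 of the 12 resident (adjusted p = 1.08e-05 for each, exact). Germline migDC2 libraries had the region at 12.3 kb in 2 of 4 and that at 17.0 kb in 0 of 4. The region 6.7 kb inside Rsad2 (chr12:26449408-26450133) was called in 16 of 16 migratory and in 3 of 12 resident libraries, all 3 of them cDC2 (adjusted p = 0.000356, exact). All 5 regions were thus open in both migratory lineages and 4 of them in no resident library. Of the 5, 4 passed again within the plain titles; the region 6.7 kb inside Rsad2 had an adjusted p of 0.0876 there (exact).

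**Figure D4:**
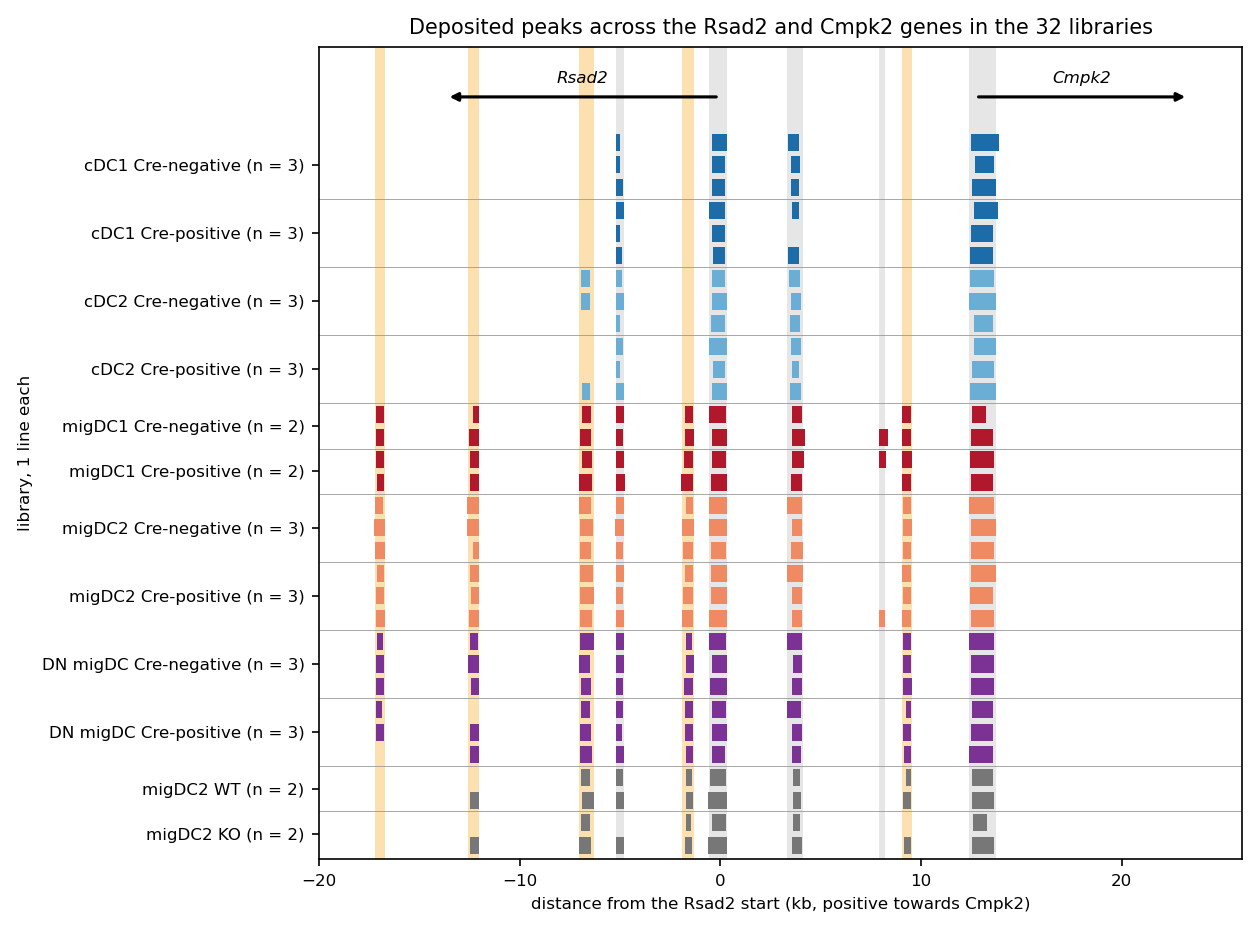
Deposited peaks of each library (1 line per library, coloured by subset) across Rsad2 and Cmpk2, by distance from the Rsad2 start in kb; arrows mark the genes and their direction, orange bands the 5 regions called more often in migratory libraries and grey bands the other regions. The start peaks at 0 and 12.7 kb are in all libraries, while peaks in the bands between -17.2 and 9.54 kb marked orange are in 15 or 16 of the 16 migratory floxed libraries.

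Other gains lay at Ifih1, Oasl1, Oas1a, Herc6, Ifitm3, Rtp4 and Dtx3l. Ifih1, whose product MDA5 senses long double-stranded RNA, gained a region 29.5 kb into the gene (chr2:62616589-62617006), called in 16 of 16 migratory, 0 of 12 resident and 4 of 4 germline libraries (adjusted p = 2.07e-06, exact). It gained another 2.7 kb before the start (chr2:62648690-62649159), in 15 of 16 against 0 of 12 and in 1 of 4 germline libraries (adjusted p = 1.08e-05, exact; 0.158 with lists of equal length). Oasl1, an OAS relative without synthetase activity that restrains Irf7 translation, gained a region 5.2 kb inside the gene in 13 of 16 against 0 of 12 libraries (adjusted p = 0.000194, exact; 0.0869 with lists of equal length). The Oas1a start described above passed with an adjusted p of 0.00105 (exact) but not within plain titles, where it was 0.255. Herc6, the mouse ligase that joins ISG15 to its targets, gained a region 1.6 kb inside the gene in 14 of 16 against 0 of 12 libraries (adjusted p = 0.000103, exact), and neither germline group called it. With lists of equal length or a signal of at least 400, too few libraries differed for this region to be tested. A weaker Herc6 region 9.2 kb before the start was called in 7 of 16 against 0 of 12 (adjusted p = 0.0297, exact); leaving out any of 19 single libraries ended this call. At the Ifitm3 start 13 of 16 migratory and 1 of 12 resident libraries had a call (adjusted p = 0.00251, exact; 0.116 within plain titles). The Rtp4 region (chr16:23609581-23610276, in the gene body, 4.3 kb from its nearer end) was called in all 16 migratory libraries and 6 of 12 resident ones, all 6 of them cDC2 (adjusted p = 0.0106, exact; 0.433 within plain titles). Dtx3l had a region 19.9 kb from its start in 16 of 16 against 7 of 12 libraries (adjusted p = 0.0247, exact; 0.433 within plain titles). These gains ranged from full separation at Ifih1 to differences carried by 1 resident subset at Rtp4.

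Losses were led by Trim25 and Samd9l. Trim25, a ubiquitin ligase that assists RIG-I, had a region 7.2 kb inside the gene (chr11:89006349-89006918) called in 12 of 12 resident libraries and in none of the 16 migratory or 4 germline ones (adjusted p = 2.07e-06, exact). Samd9l, an antiviral protein that shuts off translation, had a region 2.1 kb inside the gene (chr6:3397110-3397848) with the same counts and the same adjusted p. Of all 81792 regions with a gene, 69 (0.0844%) were called in all 12 resident and none of the 16 migratory libraries, and these were 2 of the 115. The reverse pattern, all 16 and none of the 12, was shown by 2796 (3.42%) and by 3 of the 115, at Ifih1, Rsad2 and Cmpk2. A region 4.0 kb downstream of the Ifitm3 start, beyond the gene (chr7:141006421-141006995), was called in 12 of 12 resident and 1 of 16 migratory libraries, a Cre-negative DN migDC (adjusted p = 1.08e-05, exact). Ifitm3 thus had 1 region called less often beside its start region called more often. The start region did not pass within plain titles (adjusted p = 0.116, exact) and was not tested with lists of equal length. Ddx58 had a region 37.4 kb from its start in 10 of 12 resident and 3 of 16 migratory libraries (adjusted p = 0.0086, exact). Bst2, which tethers virions to the cell surface, lost a region 1.6 kb inside the gene, called in 8 of 12 against 2 of 16 (adjusted p = 0.0187, exact), and Ifi35 one at 2.2 kb, called in 7 of 12 against 1 of 16 (adjusted p = 0.0149, exact). The start regions of Bst2 and Ifi35 were called in all 32 libraries. Within plain titles adjusted p-values were 0.239 at this Ddx58 region, 0.433 at Bst2 and 0.276 at Ifi35 (exact).

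Samd9l had the most regions and a change in both directions. Of the 6 passing regions of Samd9l, 4 had an adjusted p of 0.433 within plain titles (exact), those at 2.1 and 27.6 kb passing. Regions at 54.3 and 55.8 kb from its start, beyond the gene's far end, were called in 8 and 6 of 12 resident and in 1 and 0 of 16 migratory libraries (adjusted p = 0.00474 and 0.0106, exact). The region 10.8 kb inside the gene was called in 5 of 6 cDC1 libraries and nowhere else (adjusted p = 0.0247, exact), and leaving out any of 4 cDC1 libraries ended that call. In the other direction, the region at 12.7 kb was called in all 16 migratory libraries and in 7 of the 12 resident (adjusted p = 0.0247, exact). The region 27.6 kb before the start was called in 7 of 16 against 0 of 12 (adjusted p = 0.0297, exact), and leaving out any of 19 single libraries ended that call. Oasl2 lost a region 20 kb from its start, in 11 of 12 resident against 7 of 16 migratory libraries (adjusted p = 0.0424, exact), and 12 single libraries each ended that call when left out. Of the 28 regions, 8 passed also within plain titles, with lists of equal length and with peaks of a signal of at least 400 only: at Ifih1 (29.5 kb), Rsad2 (1.6, 12.3 and 17.0 kb), Cmpk2, Samd9l (2.1 kb), Ifitm3 (4.0 kb) and Trim25. Some of the 28 did not enter these tests: 1 within plain titles, 9 with lists of equal length and 6 with that signal. The like share over all regions was not counted.

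**Figure D5:**
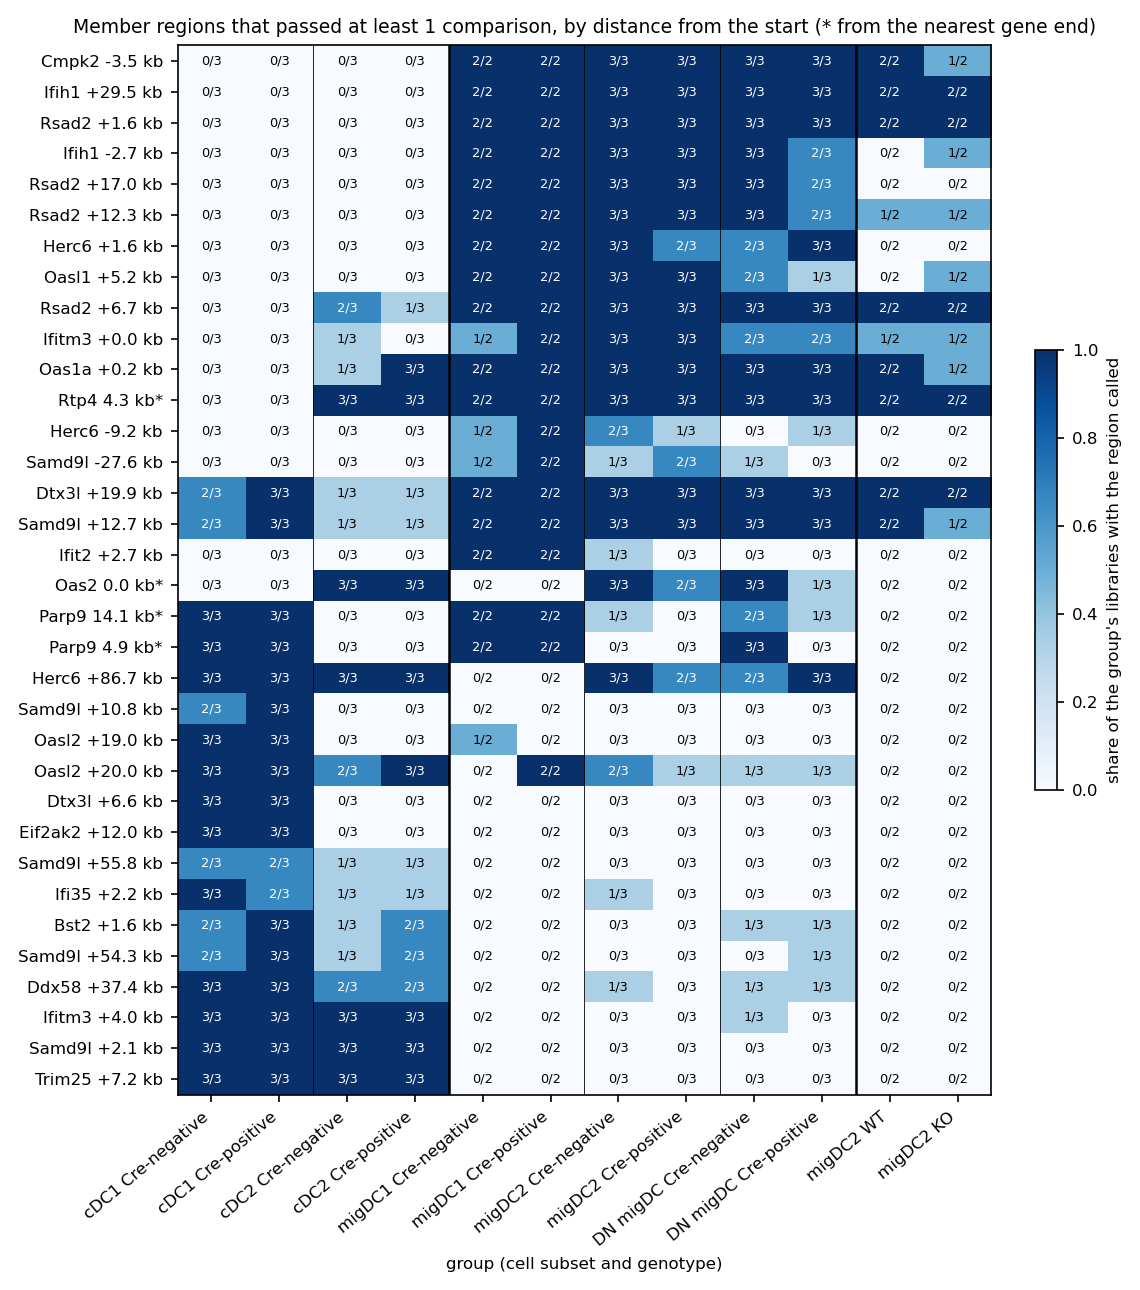
Number of libraries with a call in each of the 12 groups for every region of the 34 genes that passed at least 1 comparison; rows are regions by gene and distance from the start (positive into and beyond the gene, negative before it; an asterisk marks the unsigned distance from the nearest gene end), colour the share of libraries. Rows run from regions called in migratory cells alone (Cmpk2, Ifih1 and Rsad2, 0 of 12 resident) to regions called in resident cells alone (Samd9l and Trim25, 0 of 16 migratory).

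Between the 2 resident lineages, 7 of 36 tested regions passed (19.4%, against 15.6% of all 31371 tested). In cDC2 2 were called more often than in cDC1 (5.56%, against 2.16%) and 5 less often (13.9%, against 13.4%). With 6 libraries against 6 the smallest p this test allows is 0.005, and every passing region reached it with full separation (adjusted p = 0.0321, exact). The regions present in all 6 cDC2 and in 0 of 6 cDC1 libraries were the Oas2 region at its gene end and the Rtp4 region. The Rtp4 region was missing in all 6 cDC1 and called in all other 26 libraries, a pattern that, over the 28 floxed libraries, was shown by 0.208% of all regions with a gene. Regions present in all 6 cDC1 and 0 of 6 cDC2 libraries lay at Eif2ak2, Dtx3l, Parp9 and Oasl2. Eif2ak2 encodes PKR, the kinase that halts translation on sensing double-stranded RNA, and its region 12 kb inside the gene (chr17:78870291-78870885) was called in cDC1 alone, in 0 of 22 other floxed and 0 of 4 germline libraries. The same counts held for a region 6.6 kb inside Dtx3l (chr16:35932209-35932635). Of all regions with a gene 1489 (1.82%) were called in all 6 cDC1 and none of the other 22 floxed libraries, against 2 of the 115. None of the 115 was called in all 6 cDC2 and in no other floxed library, a pattern of 0.0746% of all. Of the 2 Parp9 regions, chr16:35952304-35952914 and chr16:35977270-35977737, both were also called in 4 of 4 migDC1 libraries; the first was called in 1 of 6 migDC2 and 3 of 6 DN migDC, the second in 0 of 6 and 3 of 6. The Oasl2 region 19 kb from the start was called in 1 of 4 migDC1 libraries and in no other cDC2, migDC2 or DN migDC library. With lists of equal length 10 regions rather than 2 were called more often in cDC2 and 5 less often, of 24 tested, and 46.4% of all tested regions passed there too. Without the second Cre-positive cDC1 library 13 passed, 2 more often and 11 less often, as did 41.6% of all regions.

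The lineages were also compared singly, migDC1 with cDC1 and migDC2 with cDC2. All migDC1 libraries carry lettered titles and all cDC1 libraries plain ones, so title series and migration cannot be told apart between them. In migDC1 19 of 45 tested regions passed (42.2%, against 35.3% of all 36815), 12 called more often than in cDC1 (26.7%, against 18.5%) and 7 less often (15.6%, against 16.8%). In migDC2 12 of 36 passed (33.3%, against 41.2% of all 32756), 9 called more often than in cDC2 (25%, against 37.2%) and 3 less often (8.33%, against 4.02%). Regions higher in both migratory subsets were 8, at Rsad2 (3), Ifih1 (2), Cmpk2, Oasl1 and Herc6. These were 8 of the 12 and 8 of the 9, and the like overlap over all regions, for gains or losses, was not counted. With lists of equal length Ifih1 (29.5 kb), Rsad2 (1.6 kb) and Cmpk2 still passed between migDC2 and cDC2 (adjusted p = 0.013 for each, exact). Rsad2 at 12.3 and 17.0 kb did not (adjusted p = 0.108 and 0.222, exact), and Ifih1 at 2.7 kb, Oasl1 and Herc6 were not tested there. Regions lower in both were 3, at Samd9l (2.1 kb), Ifitm3 (4.0 kb) and Trim25, and none went opposite ways; a difference between the lineages was not tested. The other gains between migDC1 and cDC1 were at Rsad2 (6.7 kb), which did not pass between migDC2 and cDC2 (adjusted p = 0.262, exact), and at Oas1a, Rtp4 and a region 2.7 kb inside Ifit2, which were not tested there because too few libraries differed. The Ifit2 region was called in 4 of 4 migDC1 and 1 of 28 other libraries. The other losses were at Ddx58, which did not pass between migDC2 and cDC2 (adjusted p = 0.325, exact), and, not tested there, at Dtx3l (6.6 kb), Eif2ak2 and a region assigned to Herc6 from 86.7 kb away, which was called in 12 of 12 resident, 0 of 4 migDC1 and 10 of 12 other migratory floxed libraries. The Ifitm3 start passed between migDC2 and cDC2, and had an adjusted p of 0.0839 between migDC1 and cDC1 (exact). Between migDC1 and cDC1 each passing region was fully separated (p = 0.01, adjusted p = 0.0283, exact), and leaving out any 1 of the 4 migDC1 libraries left 0 of the interferon gene regions, and 0 of all regions, past the threshold. Between migDC2 and cDC2 adjusted p-values were 0.0181 to 0.0485 (exact). With lists of equal length 4 regions were called more often and 7 less often, where the full lists gave 9 and 3. The full cDC2 lists were shorter, with a median of 46846.5 peaks against 62377.5 in migDC2. Shares of all regions at equal length are not given here, so this turn is not read as particular to these genes.

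Among migratory subsets no region passed the stratified test. Between migDC1 and migDC2 even full separation gave p = 0.01 and an adjusted p of 0.0594 (exact conditional test). That no region passed there does not show that the 2 subsets are alike. Of 20 tested regions between migDC1 and migDC2, 0 passed (0% of 20987 over all genes; smallest adjusted p over all regions 0.0594, exact conditional test), 2 had an unadjusted p under 0.05, and Fisher's exact test without strata called 1 of the 20 and 16.8% of all regions. Of 22 between DN migDC and migDC2, 0 passed (0% of 22285), 0 had an unadjusted p under 0.05 and Fisher's exact test called 0. The largest contrasts by count were the Oas2 region at its gene end (0 of 4 migDC1, 5 of 6 migDC2), the Herc6 region at 86.7 kb (0 of 4, 5 of 6), the Ifit2 region at 2.7 kb (4 of 4, 1 of 6) and the Parp9 regions (4 of 4 against 1 of 6 and 0 of 6), chosen after their values were seen.

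No change with CD11c-Cre in floxed Ifngr1 mice was detected at these genes. Of 71 tested regions 0 passed between Cre-positive and Cre-negative libraries (0% of 61445; smallest adjusted p over all regions 0.512, exact conditional test with subset as strata), 0 had an unadjusted p under 0.05, and Fisher's exact test without strata called 0 of the 71 and 1 of all regions. The called share of the 115 regions was 64.16% ± 7.78 (SD, n = 14) in Cre-negative and 61.93% ± 6.75 (n = 14) in Cre-positive libraries. Less that of all genes it was 2.99 ± 3.15 and 1.49 ± 3.82 points, a difference of -1.5 within the spread. Reading subsets singly, 3 libraries against 3 cannot give an exact two-sided p below 0.1, nor 2 against 2 one below 0.333, so the following are counts. In cDC1 a region 19.4 kb from the Ifitm3 start was called in 3 of 3 Cre-negative and 0 of 3 Cre-positive libraries, 1 of 36 varying regions of the interferon genes (0.572% of all varying regions). In migDC2 a region 6.5 kb inside Ddx58 was called in 3 of 3 Cre-negative and 0 of 3 Cre-positive libraries, 1 of 27 (0.962%). In DN migDC the Parp9 region 4.9 kb from the gene end was called in 3 of 3 against 0 of 3, 1 of 36 (0.378%). In migDC1 regions at Oasl2 (20 kb) and Samd9l (14.4 kb) were called in 2 of 2 Cre-positive and 0 of 2 Cre-negative libraries, 2 of 19 (6.66%). In cDC2 0 of 27 were separated, against 0.151% called in Cre-positive libraries alone and 0.0588% in Cre-negative ones alone. The reverse separations, called in Cre-positive libraries alone, were shown by 0 regions in cDC1 (0.0776% of all varying regions), migDC2 (0.0631%) and DN migDC (0.244%), and in migDC1 0 were called in Cre-negative libraries alone (0.627%). In germline migDC2 a region 2.5 kb before the Ifit2 start was called in 2 of 2 WT and 0 of 2 KO libraries, 1 of 19 (2.02%), and it was called in all 28 floxed libraries; 0 were called in KO libraries alone (2.43%). No gene was separated by genotype in more than 1 subset.

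Genes around the 34 gave a mixed frame. Of all tested regions 25% were higher in migratory than in resident libraries and 15.1% lower. For 24 genes of interferon production and signalling, 29 of 98 tested regions were called more often (29.6%) and 12 less often (12.2%), led by Traf3 with 6 higher of 10, Jak1 with 2 higher and 3 lower of 13, and Tank with 5 higher of 13. Of 147 tested regions at other type I interferon stimulated genes 31 were higher and 33 lower, Epsti1 having 8 higher of 14, Parp11 3 higher and 1 lower of 6, and Trafd1 2 higher and 2 lower of 4. At genes induced by interferon-γ, GTPases and chemokines among them, 39 of 95 were higher and 9 lower. The leading genes there were Irf1 with 9 higher of 14, Nlrc5 with 8 of 13 and Cd274 with 5 of 8. Beside these, the 34 genes (22.5% higher, 16.9% lower) lay close to the other interferon stimulated genes (21.1% and 22.4%) and below the interferon-γ list in gains (41.1% and 9.47%); the difference between lists was not tested.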

How the data were processed

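Omni-ATAC-seq libraries of 32 mouse DC samples were analysed from the peak lists that the authors deposited, 1 list per library without pooling of replicates. The submitters' processing notes name Bowtie2, deepTools, Genrich and the build mm10; the sources used here give no version or setting, nor whether read ends were shifted for the transposase. The peak signal in the deposited lists, never negative and above 200 in every list, ranked the peaks of a list against each other and set an alternative threshold of 400. The −log10 p at each summit, as deposited by the authors, only ordered peaks of equal signal. Lists hold no reads, so depth, counting error and detection limits are unknown: a region without a call may be closed or lie under that list's threshold, and a long list reaches weaker peaks.

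Autosomal and X-linked peaks were merged into regions of at least 100 bp covered in at least 3 of the 32 lists, with a median width of 569 bp. Regions were assigned to protein-coding genes of the RefSeq table of GRCm38.p6, by midpoint within a gene body (53097 regions) or else the nearest gene end within 50 kb (28695); 8673 had none. The table gives no exons, so a region is placed only within a gene or between genes, and no target gene is shown by it. Starts came from the RefSeq promoter table, which lists 26 of the 34 genes; Zbp1, Rtp4, Usp18, Oas2, Parp14, Parp9, Dhx58 and Ifi27l2a had none, and distances for them are from the nearest gene end. Symbols without a match were Mx1, Mx2, Gbp11 and Cxcl11.

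Groups were those of the labels. The test is described with its first result; 28 floxed libraries were tested. It was run on simulated calls as a check. Where it compares few libraries its p-values take few values, so passing depends on how many regions of the whole table separate fully. Alternatives were a signal threshold, lists of equal length, any overlap, other consensus minimums and gene rules, Fisher's test without strata, a looser filter and leaving out each library. Every gene of the 34 is named; a region is given with its calls where it passed a comparison, and other genes come from 3 lists, up to 3 each by the number of passing regions. The members and lists were chosen with earlier results of these data known. Python 3.11.15, numpy 2.4.6 and pandas 2.3.3 were used.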

Additional observations from a re-analysis of the deposited data

Results flagged for a closer look

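Among 10 sets of values screened, the share of the 115 regions called and the same share less that of all genes in each of the 5 floxed subsets, 1 library stood apart from the rest of its subset. The first Cre-negative migDC1 library had 53.91% of the regions called, the lowest of the 4 migDC1 libraries, and 7.67 points above all genes, the highest of the 4. Both values were far from the other 3 libraries relative to the range of the subset, a distance that chance gives in about 1 in 20 groups. This library also had the shortest migDC1 list, with 45052 peaks against 57727 to 60398 in the others. The part of list length in these values was not tested.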

How the results depend on the processing

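The count of passing regions in each comparison mostly held, within 1.5 times, under the alternatives. With regions near a gene end or start alone, fewer were tested, and 3 regions passed between migratory and resident, 1 between cDC2 and cDC1, 1 between migDC1 and cDC1 and 0 between migDC2 and cDC2. Within plain titles 17 passed between migratory and resident (14 higher, 3 lower). Between migDC1 and cDC1 12 passed with a signal of at least 400. Lists of equal length gave 15 between cDC2 and cDC1 (46.4% of all regions passed) and 2 between migDC1 and migDC2 (26.2% of all), and Fisher's exact test gave 1 in the latter (16.8% of all). The cause was not tested, and a count without the share of all regions beside it is not read as particular to these genes. Leaving out single libraries gave 24 to 34 passing regions between migratory and resident, 7 to 13 between cDC2 and cDC1, 0 to 21 between migDC1 and cDC1, 12 to 14 between migDC2 and cDC2, and 0 in the other 3 comparisons.

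The difference between the share of the interferon genes and of all genes changed sign near gene ends and starts for migratory minus resident (3.73 points) and migDC1 minus migDC2 (-1.82 points). Migratory minus resident was also above 0 with a signal of at least 400 (0.54), intergenic regions within 10 kb (1.17) and lists of equal length (0.36), each within the spread. Near gene ends it was also 15.96 for cDC2 minus cDC1, 11.83 for migDC1 minus cDC1 and -3.95 for DN migDC minus migDC2. With intergenic regions limited to 10 kb it was 9.66 for migDC1 minus cDC1. For migDC1 minus migDC2 it was 1.52 with a signal of at least 400 and 2.23 with lists of equal length, which gave -1.8 for migDC2 minus cDC2. Leaving out single libraries gave -1.56 to -0.36 for migratory minus resident, 5.01 to 6.7 for cDC2 minus cDC1, 5.14 to 6.53 for migDC1 minus cDC1, -5.58 to -3.88 for migDC2 minus cDC2, 4.02 to 5.39 for migDC1 minus migDC2, -1.73 to -0.36 for DN migDC minus migDC2 and -2.13 to -1.09 for Cre-positive minus Cre-negative. The contrast of cDC1 with the other subsets near gene ends, added after the data were seen, kept its sign in all its alternatives, from -13.69 to -11.89 without single libraries.

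For single genes, 3 settings left 0 regions in the reported direction while another region of the gene passed the other way: Oasl2 within plain titles, Herc6 with lists of equal length (in 2 comparisons) or a signal of at least 400, and Samd9l from cDC2 to migDC2 with that signal.

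Numbers in the lettered titles might pair libraries. Deviations of same-numbered libraries from their group means correlated between -0.033 and 0.191, not over 0.1 in every pair, so the numbers were not taken to pair them. The check is weak, since deviations within a group mirror each other and numbers 1 and 3, like 2 and 4, gave the same values. With the title number as a replicate block, among lettered titles, each block held a single library of each subset. No region can reach the threshold in so small a design, so it says nothing about the calls. The difference in share was 4.71 points between migDC1 and migDC2 and -1.95 points between DN migDC and migDC2.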
